A study of Mus musculus with 12 samples.

Results

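The 3 DDKC tumor cell lines 9750, 9790 and 9804 were compared as they grew without added DKK3. The 6 untreated libraries of the series' 12 were chosen by their labels, which place 2 in each line and name no treatment. DDKC cells come from pancreatic tumors of Dkk3-/- mice that also carry Ptf1aCre/+, so all 3 lines share the loss of Dkk3 in every cell of the mouse and a Cre that is active in the pancreas. The knockout allele replaces an exon of Dkk3. In Dkk3-null acinar cultures the paper found total Dkk3 RNA at levels like wild type, which it ascribes to a second start of the gene. In the untreated cells of all 3 lines here the gene had 0 counts, and the reason was not tested. The other 6 libraries come from the same lines treated with recombinant DKK3 (rDKK3). They supply the second sample of each line that the test needs, and their levels are given beside some of the untreated ones. The paper describes the Dkk3-null tumor cells that it treated with rDKK3 as end-stage. Age, sex and strain of the mice are not given in the sources used here. Each line was taken as 1 tumor, so a difference between lines is a difference between 3 individual tumors that had adapted to culture in medium with fetal bovine serum.

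Pancreatic ductal adenocarcinoma (PDAC) cells keep, to very different degrees, the identity of the foregut epithelium from which the pancreas develops. Tumors of the classical kind express transcription factors of the GATA and HNF families together with trefoil factors and mucins, whereas basal or mesenchymal tumors lose these and express laminins, keratins of stratified epithelia or matrix genes. Inactivation of the Cdkn2a locus and of the p53 pathway are among the commonest events in these tumors. Lines from different tumors of 1 genotype can therefore stand at different points of these axes before any treatment.

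Untreated libraries held between 7520741 and 24541083 counts. The 2 libraries of each line were summed, which gave 28824342 counts for line 9750, 24421466 for line 9790 and 36140718 for line 9804. Levels are given as CPM, the counts of a gene scaled to the normalized library total, and compare the same gene between lines, never different genes. With 3 counts taken as the floor of detection, the limit was 0.1 CPM in line 9750, 0.129 CPM in line 9790 and 0.086 CPM in line 9804. This floor covers counting error only, since the reads carry no molecular identifiers. Differences between lines were tested with edgeR's quasi-likelihood test on 6 summed samples, the untreated and the rDKK3-treated sum of each line, in a model with line and treatment, and p-values were adjusted by Benjamini and Hochberg. Whether separate cultures stand behind a line's 2 libraries is not given in the labels. Over 12979 well counted genes they deviated by 6.39 times the counting error, and by 0.764 times once every gene was allowed a shift common to the lower-numbered and the higher-numbered libraries of the series. Taking 2 different lines as repeats gave 290 to 386 times the counting error. The spread behind the p-values is what is left of the 6 samples after the line and the average treatment change, with 2 residual degrees of freedom. It reflects how differently the lines changed with rDKK3. It is neither a spread between repeat cultures nor one between tumors of a kind.

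The labelled cell type was checked against defining markers. All 12 ductal markers had enough counts to be tested, and 9 of them differed between the lines. In line 9790 1 of the 12 was at or under the floor, and in the other lines none was. Krt19, a keratin of duct cells, stood at 1160, 2070 and 1510 CPM in lines 9750, 9790 and 9804, and Krt7 at 933, 530 and 501 CPM. Epcam, an adhesion molecule of most epithelia, had 2.03, 0.944 and 0.803 CPM. Markers of other pancreatic cells were mostly at or under the floor. That held for 11 to 13 of 15 acinar, 10 or 11 of 12 endocrine, 9 to 11 of 15 fibroblast, 10 or 11 of 14 immune, 6 of 10 endothelial and 5 of 6 erythroid markers, depending on the line. Of 8 Schwann and neural markers only 3 or 4 were at or under the floor, and all 4 tested differed between the lines. The leukocyte gene Ptprc did not pass 0.086 CPM and the fibroblast gene Dcn 0.0429 CPM. Summed over their lists, fibroblast markers reached 51.8 CPM in line 9750 against 10.1 and 7.97 CPM, most of it Acta2, and immune markers 395, 151 and 244 CPM, most of it Cd14. Their part in the differences below was not tested.

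Of 16277 genes tested, 5480 (33.7%) differed between the lines at an adjusted p under 0.05, and 4845 of these were protein-coding. A gene was assigned to a line when it passed this test and its untreated level was at least 2-fold above, or at least 2-fold below, both other lines. By this rule 682 genes (4.19% of those tested) were higher in line 9750, 758 (4.66%) in line 9790 and 599 (3.68%) in line 9804. Lower levels were found for 588 (3.61%), 716 (4.4%) and 660 (4.05%) genes. A gene can be higher in one line and lower in another, and 3145 genes belonged to at least 1 of these 6 classes. Some genes passed the filter only through the line where they were high, such as Krt20 in line 9750. For a list that holds such genes, the share called partly restates the filter. In the treated samples the same line remained the extreme for 94.1% to 98.8% of the genes of a class, against 62.9% to 70.9% of all genes tested. Those samples took part in the test, so this is no independent check. Across genes, Pearson's r of the log2 levels was 0.898 to 0.901 for the 3 pairs of untreated lines and 0.968 to 0.988 between the untreated and the treated sample of the same line. Genes are not independent replicates, and these values are a description.

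**Figure D1:**
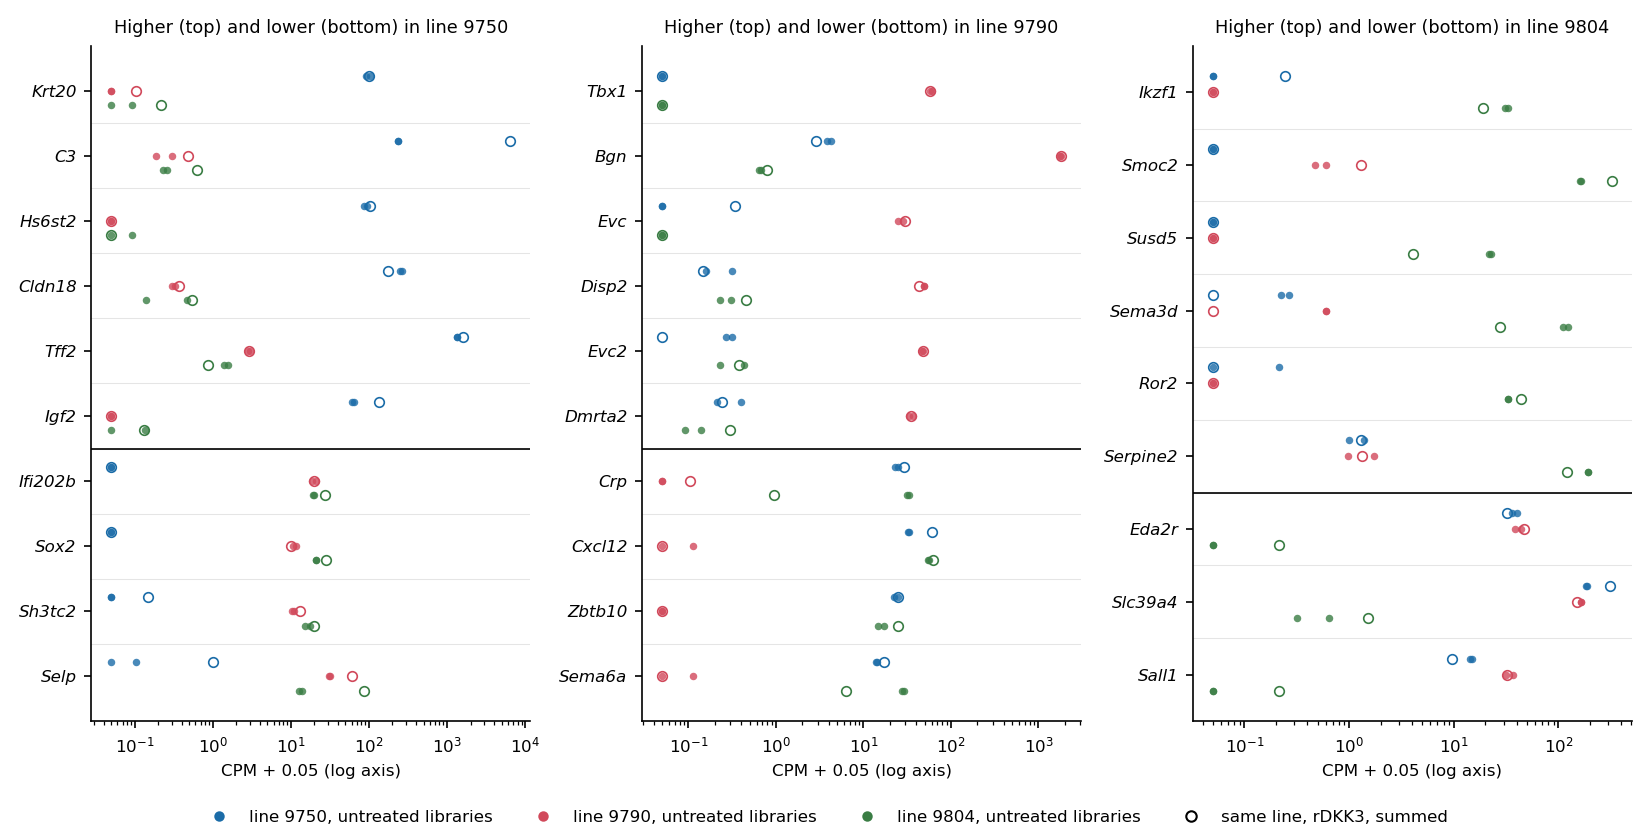
CPM (with 0.05 added, log axis) of the genes named for each line, 6 higher and 3 or 4 lower, in each untreated library (filled points) and in the summed rDKK3-treated libraries of the same line (open points). The 2 untreated libraries of a line lie on or beside each other, while for every gene shown the ratio of the marked line's untreated level to each other line's, or its bound or estimate where a line is near 0, is 105 or more in 1 direction.

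The genes that stood farthest above the other lines in line 9750 were Krt20, C3, Hs6st2, Cldn18, Tff2 and Igf2. Tff2, a trefoil peptide secreted with gastric mucus, reached 1360 CPM in both libraries of line 9750. It stood at 2.79 and 2.91 CPM in line 9790 and at 1.46 CPM in the summed libraries of line 9804. These values are 473-fold and 929-fold apart (adjusted p = 0.000464). Cldn18, a tight junction claudin of stomach and lung, had 262 and 249 CPM in line 9750 and no more than 0.422 CPM in any library of the others (985-fold and 804-fold, adjusted p = 0.000464). Krt20, a keratin of differentiated gastrointestinal cells, had 102 and 92.6 CPM in line 9750, 0 counts in line 9790 and a single count in line 9804. That is at least 747-fold above line 9790 (adjusted p = 0.000767). The ratio to line 9804 was 3350 with a 95% counting interval of 601 to 133000. C3, the central complement component, was at 235 CPM in both libraries and under 0.25 CPM elsewhere, 1100-fold and 1170-fold apart (adjusted p = 0.00196). Under rDKK3 the C3 level of line 9750 was 6470 CPM, so its untreated value is the lower of its 2 levels here. The heparan sulfate sulfotransferase Hs6st2 (94.2 and 85.3 CPM) and the imprinted growth factor Igf2 (63.8 and 60.5 CPM) completed the 6, with 0 counts of either in line 9790 and 1 or 2 counts in line 9804. Except for Tff2, the 6 genes stayed under 0.43 CPM in every untreated library of the other lines.

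The 4 genes lowest in line 9750 had 0 counts there, or 1 in the case of Selp. Sox2, a transcription factor of foregut progenitors and stem cells, had 11.7 and 10.5 CPM in line 9790 and 21.1 and 21.2 CPM in line 9804. It was therefore at least 109-fold and at least 212-fold lower in line 9750 (adjusted p = 0.0026). Ifi202b, an interferon-inducible gene of a cluster of near-identical copies among which reads can be split, was at 19.2 CPM in both other lines and at least 191-fold lower in line 9750 (adjusted p = 0.00246). Sh3tc2, which acts in endosome recycling, was at least 105-fold lower (adjusted p = 0.00248). Selp, the adhesion receptor P-selectin, had 31.3 and 13.6 CPM in lines 9790 and 9804 (adjusted p = 0.00652).

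In line 9790 the genes farthest above the other lines were Tbx1, Bgn, Evc, Disp2, Evc2 and Dmrta2. Tbx1, a T-box factor of the pharyngeal region, had 60.3 and 58 CPM in its libraries and 0 counts in every untreated library of the other lines. It was at least 587-fold and at least 683-fold higher (adjusted p = 0.00246). Evc and Evc2, neighbouring genes whose products form a complex at the base of the primary cilium that transmits Hedgehog signals, stood at 27.5 and 47.5 CPM. Evc had 0 counts in both other untreated lines (at least 274-fold and at least 319-fold), and Evc2 was 203-fold and 151-fold higher (adjusted p = 0.00527 and 0.00134). Disp2, a relative of the transporter that releases Hedgehog ligands, was at 49 and 49.7 CPM and 297-fold and 216-fold higher (adjusted p = 0.000847). Bgn, the matrix proteoglycan biglycan, reached 1810 and 1760 CPM against 4.04 and 0.602 CPM (adjusted p = 0.000338). Dmrta2, a DMRT family transcription factor, was at 35.6 CPM, 152-fold above line 9750 (adjusted p = 0.00117). The treated sample of line 9790 gave 58.1 CPM for Tbx1 and 1820 CPM for Bgn, next to the untreated values.

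Among genes lowest in line 9790, the chemokine Cxcl12 had 1 count in 2 libraries there, against 32.6 CPM in line 9750 and 55.4 CPM in line 9804 (adjusted p = 0.00134). The ratio to line 9750 was 760, with a counting interval of 136 to 30100. Zbtb10, a zinc finger repressor, had 0 counts in line 9790 and was at least 181-fold and at least 119-fold higher in the others (adjusted p = 0.00248). The semaphorin Sema6a had 1 count in line 9790 and 13.8 and 27.8 CPM in lines 9750 and 9804 (adjusted p = 0.00884). Crp, an acute phase protein, had 0 counts in line 9790 and 23.7 and 32.2 CPM in the others (adjusted p = 0.0365). Crp is the least certain of the 4, because the treated sample of line 9804 held only 0.9 CPM.

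For line 9804 the same rule gave Ikzf1, Smoc2, Susd5, Sema3d, Ror2 and Serpine2. Smoc2, a matricellular protein, reached 164 and 160 CPM in its libraries, at least 1610-fold above line 9750 with 0 counts and 313-fold above line 9790 (adjusted p = 0.000492). Serpine2, a secreted protease inhibitor, was at 190 CPM against 1.2 and 1.16 CPM, which is 159-fold and 164-fold apart (adjusted p = 0.000492). Ikzf1, a zinc finger factor best known from lymphocytes, had 32.7 and 30.6 CPM and 0 counts in both other untreated lines (at least 313-fold and at least 243-fold, adjusted p = 0.00564). Of the 14 immune markers, 10 were at or under the floor in line 9804, with Cd3e, Cd3d and Itgam at 0 counts, and the list summed to 244 CPM there, most of it Cd14, against 395 and 151 CPM in lines 9750 and 9790. Ror2, a receptor of non-canonical Wnt ligands, was at 32.8 CPM with 3 counts in line 9750 and 0 in line 9790 (adjusted p = 0.00227). Its smaller log2 difference was 7.41, and 8.24 without replicate 2 of line 9750, which held those 3 counts. The guidance molecule Sema3d (115 CPM, 573-fold and 206-fold higher, adjusted p = 0.00126) and Susd5 (21.9 CPM, 0 counts elsewhere, adjusted p = 0.006) completed the list.

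Among the genes lowest in line 9804 were Eda2r, Slc39a4 and Sall1. Eda2r, a receptor of the tumor necrosis factor family and a target of p53, had 37.6 and 40 CPM in lines 9750 and 9790 and 0 counts in line 9804 (at least 437-fold and at least 465-fold, adjusted p = 0.00241). Slc39a4, an intestinal zinc importer, was 380-fold and 339-fold lower in line 9804 (adjusted p = 0.00191). Its smaller log2 difference was 8.15, and 8.77 without replicate 2 of line 9804. Sall1, a developmental zinc finger factor, also had 0 counts in line 9804 (adjusted p = 0.00357).

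Many genes of the foregut program were higher in line 9750 or lower in line 9804. Of 38 genes of the classical foregut list, 29 were expressed highly enough to be tested and 24 differed between the lines, or 82.8% against 33.7% of all genes. In line 9750 13 were higher and 2 lower, classes of 4.19% and 3.61% of all genes. In line 9804 9 were lower, a class of 4.05%, and 1 was higher, and in line 9790 1 was higher and 1 lower. The median gene was 0.98 higher on the log2 scale in line 9750 than in line 9790 and 2.21 higher than in line 9804, against 0.01 and 0 over all genes tested. Line 9790 stood between, with a median 0.83 above line 9804.

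Among its transcription factors, Gata4 fell into a series of 57.1 and 55.7 CPM in line 9750, 24.1 and 23.7 CPM in line 9790 and 1.07 and 1.52 CPM in line 9804. The lines did not overlap, and the log2 difference between lines 9750 and 9804 was 5.26. Fitted over the untreated and treated samples together, as is every difference with a ± value below, it was 5.26 ± 0.19 (SE, adjusted p = 0.000852). Foxa1, a pioneer factor that opens endodermal enhancers, was high only in line 9750, with 36.8 CPM against 4.25 and 4.16 CPM (adjusted p = 0.00515). Hnf4a was at 366 and 263 CPM in lines 9750 and 9790 and at 67.1 CPM in line 9804 (adjusted p = 0.00911). Gata6 was highest in line 9790, with 43.6, 63.5 and 18.1 CPM in the order of the line numbers. Pdx1, the master regulator of the pancreatic bud, stood at 75.3, 105 and 120 CPM and did not pass the test. Cdx2, the intestinal homeobox factor, went the other way, with 2.2 CPM in line 9750 against 25.1 and 27.4 CPM (adjusted p = 0.00383).

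The secreted and surface products of this program included its 5 widest gaps, those of Tff2, Tff1, Cldn18, Muc1 and Muc5ac. Tff1 had 115 and 116 CPM in line 9750, 1.11 and 1.8 CPM in line 9790 and 2 counts in line 9804 (adjusted p = 0.000464). Muc1, a membrane mucin of duct and gland surfaces, had 162, 12.5 and 0.545 CPM, and the log2 difference between lines 9750 and 9804 was 7.99 in the untreated samples and 8.31 ± 0.29 in the fit over both conditions (adjusted p = 0.000492). Muc5ac, the gel-forming mucin of gastric surface cells, was low even in line 9750, at 5.8 CPM, and had 2 and 0 counts in the others. Ctse, the gastric protease cathepsin E, separated line 9804 alone, with 335 and 233 CPM in lines 9750 and 9790 and 8.23 CPM in line 9804 (adjusted p = 0.00503). Agr2, a chaperone of mucin folding, did not follow the list and was detected mainly in line 9790, with 3.48 CPM against 0 counts in line 9750. Several products of mature stomach cells, Gkn1, Gkn2, Gkn3, Muc6 and Reg4, stayed under 0.34 CPM in every line.

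The sequence before the Cldn18 gene is shown as a description. This gene was on in 1 line and nearly absent in the others, and Gata4 was highest in that line. Gata4 RNA was also detected in the lines where Cldn18 was nearly absent. RefSeq (GRCm38.p6) places 2 starts in this gene, and counts per gene do not show which of them was used. The 250 bases before the upstream start, chr9:99717268-99717517 on the minus strand, hold 2 matches to the GATA letters searched (AGATAA or TGATAA on either strand), which are in capitals and begin 146 and 131 bases before the start. The window of the same length before the other start, chr9:99710064-99710313, holds 0 matches and is not printed.
Cldn18 upstream: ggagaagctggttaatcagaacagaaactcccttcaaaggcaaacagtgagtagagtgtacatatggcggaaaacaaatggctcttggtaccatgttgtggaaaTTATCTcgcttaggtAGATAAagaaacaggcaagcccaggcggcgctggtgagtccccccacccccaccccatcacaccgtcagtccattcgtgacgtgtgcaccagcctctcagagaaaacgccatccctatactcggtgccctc
Such a match was present in 16.6% of the 32851 windows of this length in the promoter table. Of the 13 foregut genes higher in line 9750, 6 had a window in this table, and only the upstream one of Cldn18 held a match. The letters are a description of the sequence and no factor binding was measured. Whether Gata4 acts on Cldn18 was not tested.

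**Figure D2:**
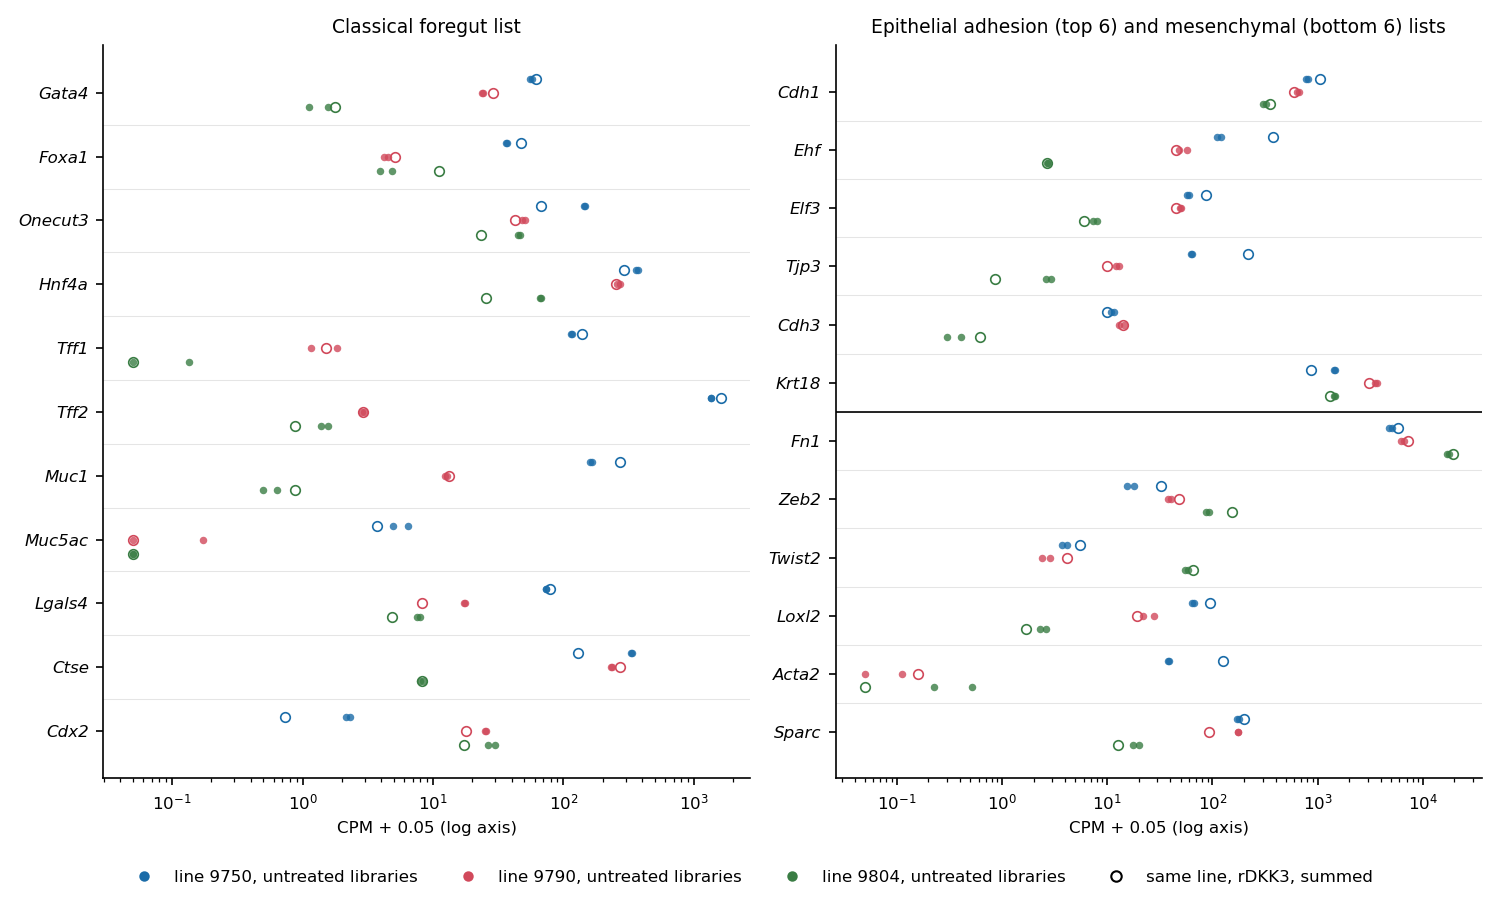
CPM (with 0.05 added, log axis) of 11 classical foregut genes (left) and of 6 epithelial and 6 mesenchymal genes (right) in each untreated library (filled) and in the summed rDKK3-treated libraries (open). Tff2 is at 1360 CPM in line 9750 and under 3 CPM in the others, and Gata4, Ehf and Tjp3 descend from line 9750 through 9790 to 9804.

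Many epithelial adhesion genes were lower in line 9804. Of 32 genes listed, 23 were tested and 18 differed (78.3% against 33.7% of all genes), and 10 of these were lower in line 9804, a class of 4.05% of all genes, while none was higher there. In lines 9750 and 9790, 4 and 5 were higher, classes of 4.19% and 4.66%. Ehf, an ETS factor of epithelia, had 122 and 111 CPM in line 9750, 57.1 and 48.2 CPM in line 9790 and 2.68 and 2.66 CPM in line 9804 (adjusted p = 0.00503). Elf3, a related factor, was at 58.6, 49.6 and 7.54 CPM (adjusted p = 0.00373). Cdh1, the gene of E-cadherin, remained well expressed, with 818 and 770, 672 and 643, and 324 and 306 CPM. In the fit over both conditions its log2 difference between lines 9750 and 9804 was 1.46 ± 0.18 (adjusted p = 0.0103). Cdh3, the gene of P-cadherin, was at 11.1, 13.4 and 0.287 CPM, and the junction protein Tjp3 at 63.2, 12.4 and 2.78 CPM. Prss8, a membrane-anchored protease, was at 0.834, 3.56 and 0.201 CPM (adjusted p = 0.0121). Simple epithelial keratins behaved differently. Krt8 and Krt18, which pair in the same filament, were higher in line 9790, at 2830 and 3560 CPM against 1270 and 1440 CPM in line 9750 and 1290 and 1440 CPM in line 9804 (adjusted p = 0.00767 and 0.00964). Several epithelial genes were missing from all 3 lines, with 0 counts of the splicing factor Esrp1 and of Ap1m2, and less than 0.35 CPM of Grhl2.

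Mesenchymal genes had no common direction. Of 30 tested, 23 differed (76.7% against 33.7% of all genes), with 7 higher in line 9804, 5 in line 9750 and 2 in line 9790. The genes lower in a line numbered 4 in line 9750, 5 in line 9790 and 4 in line 9804. Of all genes the higher classes held 3.68%, 4.19% and 4.66%, and the lower ones 3.61%, 4.4% and 4.05%. Median log2 differences were 0 between lines 9750 and 9790, and -0.48 and -0.4 for these lines against 9804. Vim was abundant everywhere, at 2600, 4780 and 3400 CPM, as was the E-cadherin repressor Zeb1, whose 75, 85.2 and 90.8 CPM did not pass the test (adjusted p = 0.118). In line 9804 Fn1, the gene of fibronectin, was at 17700 and 17000 CPM against 4880 and 6320 CPM in lines 9750 and 9790 (adjusted p = 0.0048). Twist2, a helix-loop-helix factor of mesenchyme, had 56.4 CPM there against 3.84 and 2.49 CPM (adjusted p = 0.00107), and Zeb2 88.9 CPM against 16.3 and 38.8 CPM (adjusted p = 0.00428). Fbn1, the gene of fibrillin, was at 20.8 CPM there against 1.23 and 0.0858 CPM (adjusted p = 0.0148). Other matrix genes were lowest in the same line. Sparc had 19.3 CPM in line 9804 and 176 CPM in both others (adjusted p = 0.00449), and the crosslinking enzyme Loxl2 2.47 CPM against 65.6 and 23.8 CPM (adjusted p = 0.0023). Acta2, the smooth muscle actin of myofibroblasts, was higher in line 9750, with 37.9 and 38.4 CPM against 0.0429 and 0.373 CPM (adjusted p = 0.00264). Of the 15 fibroblast and stellate markers, 10 were at or under the floor in line 9750, with Dcn, Lum, Postn, Fap and Dpt at 0 counts. Of the 5 tested, Acta2 and the collagen gene Col1a1 (11.2, 3.22 and 1.66 CPM, adjusted p = 0.0183) were called, both higher in line 9750. In bulk RNA, fewer cells of a state and less RNA per cell cannot be told apart.

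The basal and squamous list was lowest in line 9750 and divided between the others. Of 16 genes tested 12 differed (75% against 33.7% of all genes), 5 of them higher in line 9790, 2 higher in line 9804 and 3 lower in line 9750. These classes held 4.66%, 3.68% and 3.61% of all genes. Line 9750 was higher for 1 gene and line 9804 lower for 2, classes of 4.19% and 4.05%. Lines 9790 and 9804 each had the highest level of 7 genes, and the median log2 difference of line 9790 from line 9804 was -0.15. Krt14 stood at 40.5 and 45.6 CPM in line 9790 and at 2.87 and 1.09 CPM in lines 9750 and 9804 (adjusted p = 0.00134). Lama3 and Lamb3, which encode laminin chains of the basement membrane, were highest in line 9790. Lama3 had 0.5, 6.95 and 1.06 CPM in the order of the line numbers and Lamb3 had 36.6, 345 and 43 CPM (adjusted p = 0.0122 and 0.0104). Gata3 was shared by lines 9790 and 9804 at 17 and 13.5 CPM and was near absent from line 9750 at 0.367 CPM (adjusted p = 0.00384). Itgb4, an integrin that binds laminins, was highest in line 9804 at 1370 CPM. Trp63, the defining factor of squamous tumors, was called higher in line 9750 but did not pass 0.967 CPM there, and Krt5, Krt6a and Krt17 were at or next to 0.

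The genes most often altered in pancreatic cancer differed at 1 locus above all. Cdkn2a, which encodes p16 and p19ARF (chr4:89192708-89212890, GRCm39), had 547 counts in line 9750 and 0 counts in lines 9790 and 9804. Its neighbour Cdkn2b (chr4:89224536-89229276), which encodes p15, had 450 counts in line 9750 and 0 in both others. The levels in line 9750 were 18.2 and 15 CPM (adjusted p = 0.00478 and 0.005), and the treated samples repeated the pattern with 161 and 163 counts against 0. Mtap, the methylthioadenosine phosphorylase gene just before Cdkn2a (chr4:89055359-89099318), was expressed in all 3 lines, at 105 CPM in lines 9750 and 9790 and at 1710 and 1590 CPM in line 9804. The log2 difference of line 9750 from line 9804 was -3.95 in the untreated samples and -3.63 ± 0.22 in the fit over both conditions (adjusted p = 0.00131). Dmrta1, the next coding gene after Cdkn2b, was detected in line 9804 alone, with 396 counts (11.4 CPM, adjusted p = 0.00703). In line 9790 Cdkn2a, Cdkn2b and Dmrta1, each expressed in another line, were all at 0 counts. Elavl2, further along, was detected at 9.48 CPM in line 9790, with 4 counts in line 9750 and 0 in line 9804 (adjusted p = 0.00289). Lines 9790 and 9804 thus shared the absence of Cdkn2a and Cdkn2b RNA and differed in each expressed neighbour named. The counts do not tell a lost gene from a silent one. Mtap, Dmrta1 and Elavl2 were chosen after their values were seen.

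**Figure D3:**
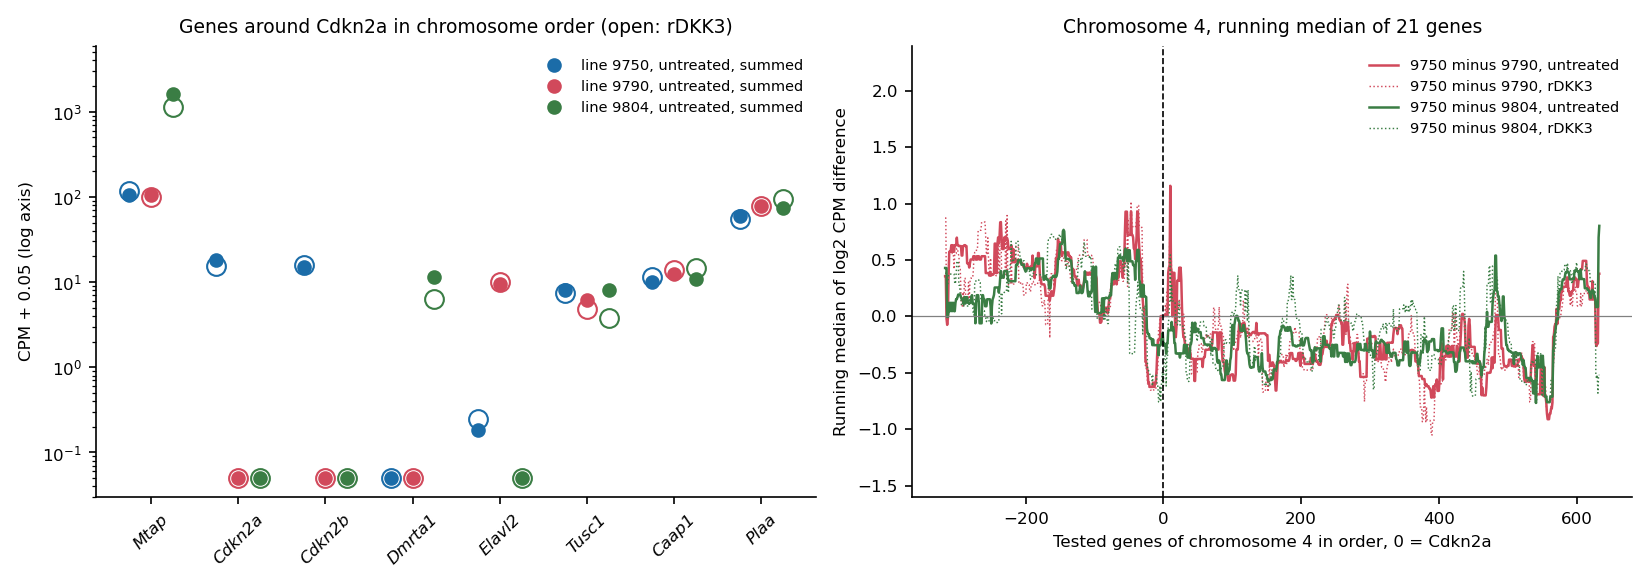
Left: CPM (with 0.05 added, log axis) of 8 genes around Cdkn2a in chromosome order, in the summed untreated (filled) and rDKK3-treated (open) libraries of each line. Right: running median over 21 tested genes of the log2 CPM difference of line 9750 from each other line along chromosome 4, which is mostly above 0 before Cdkn2a and mostly below 0 after it.

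Of the 14 genes of the driver list 6 differed between the lines (42.9%). Apart from Cdkn2a and Cdkn2b these were 4 of 12 (33.3%), near the 33.7% of all genes. Rnf43, which removes Wnt receptors from the cell surface, was at 6.44, 1.16 and 0.086 CPM (adjusted p = 0.00515). Tgfbr1 was at 172 CPM in line 9750 against 63.9 and 85.3 CPM (adjusted p = 0.00729), and Tgfbr2 at 257 CPM against 169 and 185 CPM (adjusted p = 0.0295). Trp53 was lowest in line 9790, with 80 and 83.3 CPM against 168 and 150 CPM in lines 9750 and 9804 (adjusted p = 0.0211). Smad4, at 148, 149 and 129 CPM, and Myc, at 189, 225 and 114 CPM, did not pass the test (adjusted p = 0.886 and 0.426). Yap1, Acvr1b, Arid1a, Map2k4 and Kdm6a were not called. Counts per gene do not show whether a transcript carries a mutation.

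Several targets of p53 were lower in line 9804. Of 20 tested 13 differed (65% against 33.7% of all genes) and 5 were lower in this line by the 2-fold rule, a class that held 4.05% of all genes. The median target was 0.61 below line 9750 and 1.05 below line 9790 on the log2 scale. Besides Eda2r these were Zmat3 (176, 211 and 36.4 CPM, adjusted p = 0.0123), Trp53inp1 (174, 215 and 52.9 CPM, adjusted p = 0.0075), Ccng1 (306, 443 and 143 CPM, adjusted p = 0.0092) and the cell cycle inhibitor Cdkn1a (168, 306 and 77.6 CPM, adjusted p = 0.0124). Trp53 RNA itself was at 150 CPM in line 9804. The targets stood highest in line 9790 for 14 of the 20 genes (70% against 35.9% of all genes), although Trp53 RNA was lowest there. Gdf15, a stress cytokine, was higher in line 9790 (24.9, 207 and 41.8 CPM, adjusted p = 0.0278). Mdm2, at 109, 150 and 90.7 CPM, was not called, and Fas, a death receptor, was instead higher in line 9750 (8, 0.515 and 0.229 CPM).

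Line 9790 had the highest level of most genes of the mitosis and cholesterol synthesis lists. For 20 mitotic genes this was so for 18 (90%), where line 9790 was the highest for 35.9% of all genes tested. The test was passed by 15 of them (75% against 33.7%), although only 3 were more than 2-fold above both other lines, a class of 4.66% of all genes. Mki67 was at 174 and 165 CPM in line 9750, 345 and 338 CPM in line 9790 and 241 and 231 CPM in line 9804 (adjusted p = 0.032). Ccnb2, a mitotic cyclin, was at 39.5, 134 and 58 CPM (adjusted p = 0.00425), and the ubiquitin-conjugating enzyme Ube2c at 47.8, 167 and 63.6 CPM (adjusted p = 0.00729). The kinetochore motor Cenpe was at 36.3, 136 and 68.4 CPM and the kinase Aurka at 24.4, 65.6 and 27.5 CPM (adjusted p = 0.0139 and 0.0116). How dense the cultures were at harvest is not given in the sources used here. In cholesterol synthesis line 9790 was the highest for 17 of 21 genes (81%). Of the 21, 19 differed, or 90.5%, and 7 were higher in line 9790. Pmvk, phosphomevalonate kinase, had 37.4, 253 and 54.8 CPM (adjusted p = 0.00168), Insig1, the sterol sensor, 193, 665 and 224 CPM (adjusted p = 0.00336) and Lss, lanosterol synthase, 149, 327 and 100 CPM (adjusted p = 0.00381). Mvd, mevalonate diphosphate decarboxylase, was at 40.3, 135 and 30.9 CPM (adjusted p = 0.00196). The median gene was 0.78 higher than in line 9750 and 0.87 higher than in line 9804.

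Hypoxia and glycolysis genes were highest in line 9790 in 22 of 26 gene records tested (84.6% against 35.9% of all genes). Of the 26, 12 differed (46.2% against 33.7% of all genes). Aldoa makes up 2 of them because the annotation holds 2 genes of this name. Car9, a carbonic anhydrase induced by low oxygen, was at 55.3 and 51.1, 375 and 344, and 12.7 and 11.9 CPM (adjusted p = 0.00109). Car12, a related enzyme, was lower in line 9804, at 12, 7.72 and 0.0574 CPM (adjusted p = 0.00414), and Adm, adrenomedullin, was higher in line 9790, at 1.97, 7.68 and 1.03 CPM (adjusted p = 0.0323). Pfkm, a phosphofructokinase subunit, was at 67.2, 299 and 66.5 CPM (adjusted p = 0.00155). The glycolytic enzymes Pgk1, Pgam1, Tpi1 and Pfkp were also called, whereas Ldha, Pkm and Slc2a1 did not pass the test. Vegfa had 247, 801 and 522 CPM and was lowest in line 9750 (adjusted p = 0.00859). Pgk1 needs care, because its 2 libraries differed more than 2-fold in every line, with 420 and 968 CPM in line 9750, 808 and 1850 CPM in line 9790 and 349 and 824 CPM in line 9804. In each series of libraries line 9790 was the highest.

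Genes of detoxification were most often highest in line 9790, for 21 of 32 tested (65.6% against 35.9% of all genes). Line 9750 was the highest for 8 (25% against 32.8% of all genes). The median log2 difference of line 9750 from line 9790 was -1.13. Of 32 tested 23 differed (71.9% against 33.7% of all genes). Higher levels were found for 10 in line 9790, 6 in line 9750 and 2 in line 9804. These classes held 4.66%, 4.19% and 3.68% of all genes. In line 9804 9 were lower, in line 9750 5 and in line 9790 1, classes of 4.05%, 3.61% and 4.4%. Slc7a11, the cystine importer, was at 52.2, 625 and 207 CPM (adjusted p = 0.00503), and Akr1b8, an aldo-keto reductase, at 58.7, 306 and 53.6 CPM (adjusted p = 0.00606). Retinal dehydrogenases took different forms in different lines. Aldh1a1 was highest in line 9790 with 7.4, 50 and 0.344 CPM (adjusted p = 0.000959), while Aldh1a2 had 0 counts in line 9750, 7.77 CPM in line 9790 and 29.4 CPM in line 9804 (adjusted p = 0.00703). Aldh1a7, a close copy of Aldh1a1 with which reads may be shared, followed it with 2.93, 38 and 0.0574 CPM. Line 9750 was higher in the carboxylesterase Ces2g (151, 34.8 and 2.9 CPM, adjusted p = 0.00189) and in Cyp1b1 (140, 12.1 and 23.9 CPM, adjusted p = 0.00986).

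**Figure D4:**
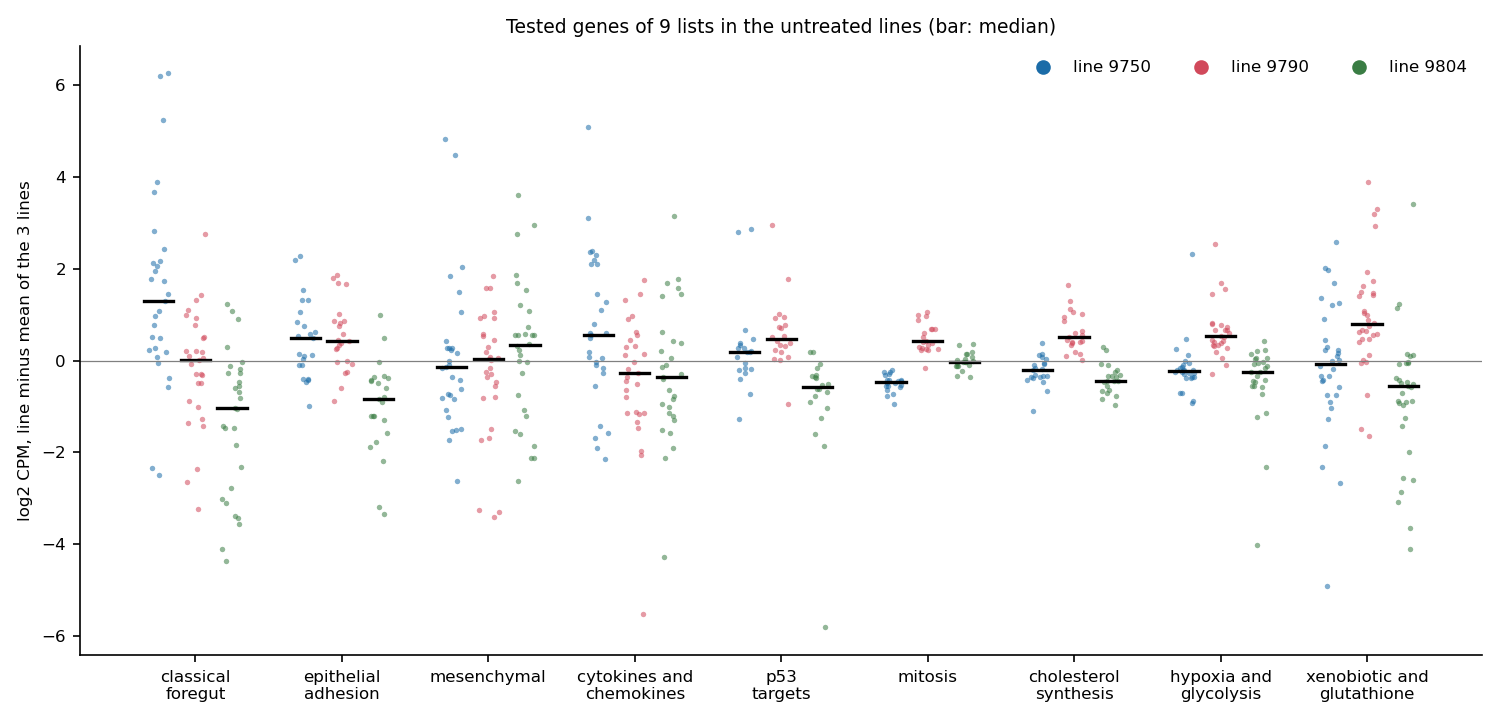
Each point is a tested gene of 1 of 9 lists and gives its log2 CPM in an untreated line minus the mean of the 3 lines, with the median as a black bar. Line 9750 is highest and line 9804 lowest for classical foregut genes, and line 9790 is highest for mitosis, cholesterol synthesis, hypoxia and glycolysis, and xenobiotic genes.

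Secreted signals to immune cells were most often higher in line 9750. Of 29 cytokine and chemokine genes tested, 19 differed (65.5% against 33.7% of all genes) and 9 were higher in this line, against 4 in line 9804 and 1 in line 9790. The classes held 4.19%, 3.68% and 4.66% of all genes. Lower genes numbered 4 in line 9750, 2 in line 9790 and 4 in line 9804, classes of 3.61%, 4.4% and 4.05%. Cxcl5, an attractant of neutrophils, had 403 and 371 CPM in line 9750, 7.11 and 6.14 CPM in line 9790 and 0.447 and 0.507 CPM in line 9804 (adjusted p = 0.00334). Cxcl1, which acts on the same receptor, was at 52.4, 1.46 and 2.67 CPM (adjusted p = 0.00438), Cxcl16 at 162, 16.8 and 19.4 CPM (adjusted p = 0.0048), Ccl2, an attractant of monocytes, at 8.2, 1.07 and 0.516 CPM (adjusted p = 0.0211) and the macrophage growth factor Csf1 at 54.5, 14.5 and 9.78 CPM (adjusted p = 0.0149). Cxcl5 stood at 5680 CPM in the treated sample of line 9750, so the gap between lines was wider there than in untreated cells. Not all signals followed. Il33, an alarmin, was highest in line 9790 at 113 CPM against 37.4 and 17 CPM (adjusted p = 0.00959), and the interleukin 1 antagonist Il1rn was at 289 and 229 CPM in lines 9790 and 9804 against 49.3 CPM in line 9750 (adjusted p = 0.00986). Spp1, osteopontin, was at 33300 and 31600 CPM in line 9804 against 6850 and 4580 CPM in the others (adjusted p = 0.00631). Il6 had a single count in the untreated libraries of line 9750 and 0 in the others.

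Interferon response and antigen presentation genes were called about as often as genes in general. Of 34 interferon response genes 10 were called (29.4%), and of 12 MHC class I genes 4 were called (33.3%), close to the 33.7% over all genes. Line 9790 was the highest for 10 of the 12 class I genes (83.3% against 35.9% of all genes), and the median log2 difference was -1.06 for line 9750 from line 9790 and 0.79 for line 9790 from line 9804. The called genes included Tap1, a peptide transporter, at 7.37, 19.5 and 5.28 CPM, and Psmb8, an immunoproteasome subunit, at 1.37, 4.16 and 0.172 CPM, both higher in line 9790. Oas3 was at 0.133, 1.54 and 0.545 CPM and Ifi44 at 0.233, 0.215 and 3.24 CPM (adjusted p = 0.0243 and 0.0379). H2-T23 was lower in line 9750, at 36.3 CPM against 138 and 76.9 CPM (adjusted p = 0.0156). H2-K1, a class I molecule, stood at 148, 382 and 210 CPM and was called without reaching 2-fold against both lines. Class I genes are near-identical copies and may share reads.

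Some developmental patterning genes had counts in 1 line and 0 counts in another. Of 39 Hox genes and 89 other homeobox and T-box factors listed, 6 and 38 had enough counts to be tested. Some of these passed the filter only through the line where they were high, such as Tbx1 in line 9790. The numbers of calls below therefore partly restate the filter. All 6 Hox genes with enough counts were called, where 33.7% of all genes were, and all 6 were highest in line 9790. Hoxa5 was at 5.75 CPM in line 9790 with 0 counts in line 9750 and 0.172 CPM in line 9804 (adjusted p = 0.00503). The neighbours Hoxa3, Hoxa4, Hoxa5 and Hoxa7 had no more than 3 counts each in line 9750. Among 38 other homeobox and T-box factors 24 were called (63.2% against 33.7%), 10 of them higher in line 9790, a class of 4.66% of all genes. In lines 9750 and 9804 3 each were higher, classes of 4.19% and 3.68%. Lower genes numbered 8 in line 9750, 3 in line 9790 and 6 in line 9804, classes of 3.61%, 4.4% and 4.05%. Pitx1, a hindlimb and stomodeum factor, had 68.7 and 69.9 CPM in line 9790, 0 counts in line 9750 and 0.66 CPM in line 9804 (adjusted p = 0.000959). Msx1 was at 6.52 CPM in line 9790 and 2.58 CPM in line 9804 with 0 counts in line 9750 (adjusted p = 0.00589), and Irx2 at 11.8 CPM in line 9804 against 0.0334 and 0.257 CPM (adjusted p = 0.00167). Line 9750 had factors of its own, Nkx2-3 at 7.07 CPM against 0.172 and 0.315 CPM (adjusted p = 0.00241) and Pax2 at 4.37 CPM against 0.472 and 0.0287 CPM (adjusted p = 0.00357).

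Clustered protocadherins, cell surface proteins whose genes are switched on in varying combinations, were lower in line 9790. Of 58 listed, 28 had enough counts to be tested, some of them only through the lines where they were high, such as Pcdhga5. The numbers of calls therefore partly restate the filter. Of the 28 tested, 22 were called (78.6% against 33.7% of all genes) and 15 of these were lower in line 9790, with 11 higher in line 9750. These classes held 4.4% and 4.19% of all genes. Pcdhga5 had 29.2 and 25.4 CPM in line 9750, 0 counts in line 9790 and 1.63 CPM in line 9804 (adjusted p = 0.00198), whereas Pcdhgb6 was shared by lines 9750 and 9804 at 14.6 and 17.4 CPM against 0.429 CPM (adjusted p = 0.00234). Pcdhgb1 had 2.17 CPM, 0 counts and 5.82 CPM, and Pcdhga9 was higher in line 9804 at 2.75 CPM against 0.0667 and 0.0429 CPM (adjusted p = 0.00859 and 0.013). The gamma genes share 3' exons, and reads from these exons do not tell the genes apart. Imprinted genes included 9 of 15 called (60% against 33.7% of all genes), of which Igf2 likewise passed the filter only through line 9750. Besides Igf2 they included Mest, higher in line 9790 at 32.5 CPM against 3.27 and 4.02 CPM (adjusted p = 0.0034), and Impact, lower in line 9750 at 5.4 CPM against 27.4 and 39.2 CPM (adjusted p = 0.00441). Dlk1, a Notch family ligand of fetal tissues, had 0.834 CPM in line 9750, 0 counts in line 9790 and 2.07 CPM in line 9804 (adjusted p = 0.0458). The 4 called lower in line 9804 were Airn, the antisense RNA of Igf2r (6.64, 4.93 and 0.545 CPM, adjusted p = 0.0191), Igf2r, Cdkn1c and Phlda2, and Kcnq1ot1 was higher in line 9750. H19, the partner of Igf2 at its locus, was at 0.167, 0.0858 and 0.373 CPM and was not tested.

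The family that Dkk3 belongs to gave little RNA in these cells. Dkk3 and Dkk4 had 0 counts in all untreated libraries. Dkk2 was higher in line 9804 at 5.74 CPM against 0.934 and 0.429 CPM (adjusted p = 0.00696). The receptors were expressed throughout, Lrp6 at 155, 185 and 186 CPM and Kremen1 at 37.1, 36 and 50 CPM without a call, and Lrp5 at 368, 436 and 239 CPM with one (adjusted p = 0.0174). Of the 19 genes the study followed in this or other assays, 16 were tested and 14 differed between the lines (87.5% against 33.7% of all genes), which include Vim, Cdh1, Cdh2, Fn1, Sox9, Krt19, Jun, Stat3, Mmp2, Mmp3, Csf1, Cxcl2, Tnf and Fas. Fos and Csf2 were not called. These genes were chosen by the study partly on these samples. Sox9, a duct cell factor, was at 112 and 106, 137 and 126, and 311 and 297 CPM, and the log2 difference of line 9750 from line 9804 was -1.48 in the untreated samples and -1.45 ± 0.14 in the fit over both conditions (adjusted p = 0.00439). Cdh2, the gene of N-cadherin, was lowest in line 9790 at 37.8 CPM against 88.8 and 83.8 CPM, and Jun likewise at 44.2 CPM against 113 and 101 CPM. Mmp3 had 21.7 CPM in line 9750, 0 counts in line 9790 and 0.373 CPM in line 9804 (adjusted p = 0.0297).

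The Y-linked genes Ddx3y, Uty, Kdm5d and Eif2s3y were expressed in all 3 lines, at 29.9 CPM or more, and none was called, while Xist did not pass 0.215 CPM.

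Chromosomes 3, 6, 15 and 19 stood apart in line 9790. The median gene on each of them was 0.40 to 0.44 higher on the log2 scale in line 9790 than in line 9750 and 0.41 to 0.45 higher than in line 9804. On the other chromosomes these medians lay between -0.21 and 0.08, and between -0.25 and 0. Of the 2858 genes tested on the 4 chromosomes, 71% were higher in line 9790 than in line 9750 and 72.2% higher than in line 9804, against 44.5% and 42.5% of the 13419 genes elsewhere. Lines 9750 and 9804 did not differ in this way, with medians between -0.04 and 0.06 on the same chromosomes. The treated samples gave medians of 0.34 to 0.48. Genes assigned as higher in line 9790 made up 8.92% of the genes on these chromosomes and 3.75% elsewhere, whereas genes lower in this line made up 3.25% and 4.64%. Leaving out all genes of the 6 classes did not remove the shift. Chromosome 15 carries Myc, which did not pass the test of lines. The 4 chromosomes were picked after the medians of all had been seen. RNA was measured and not DNA, so copy number was not tested.

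**Figure D5:**
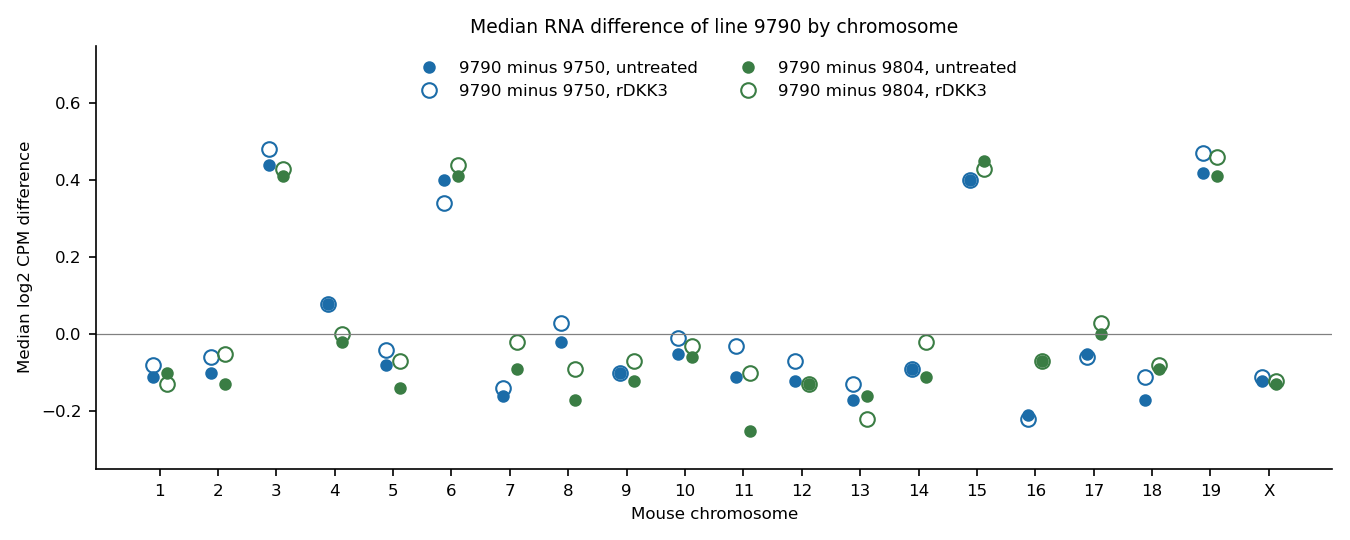
Median log2 CPM difference of line 9790 from line 9750 (blue) and from line 9804 (green) over the tested genes of each chromosome, in untreated (filled) and rDKK3-treated (open) samples. Chromosomes 3, 6, 15 and 19 lie between 0.34 and 0.48 and every other median lies between -0.25 and 0.08.

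Chromosome 4 was divided in line 9750. On the 317 tested genes before Cdkn2a the median difference of line 9750 was 0.39 from line 9790 and 0.25 from line 9804, and 68.8% and 67.8% of the genes were higher in line 9750. On the 633 genes after Cdkn2a the medians were -0.27 and -0.25, and 34% and 31.9% were higher. The treated samples had medians of 0.34 and 0.23 before and -0.24 and -0.16 after. Lines 9790 and 9804 differed from each other by -0.1 and 0 on the 2 sides. The division at Cdkn2a was chosen after the running median had been seen. That median already fell below 0 shortly before the gene, and it was again above 0 at the far end of the chromosome.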

How the data were processed

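RNA of the 6 untreated libraries (3 lines, 2 libraries each) was analysed, with the 6 rDKK3-treated ones in the test. The authors prepared stranded libraries from total RNA, aligned 50-base read pairs with STAR 2.7.9a to GRCm39, counted them by strand on GENCODE genes, and deposited raw counts per gene. From the 57186 genes, edgeR's filter kept 16277. The rows of 92 spike-in sequences name no gene, had 0 counts and were left out. R 4.3.3 was used with edgeR 4.0.16 (TMM, glmQLFTest) and DESeq2 1.42.0. The test was also run on simulated counts that had the same dispersion for all genes and no gene made silent in a line. The data differ in both, so that run does not show how well the test performs on them. Log2 levels used a prior count of 2. A ± value is a standard error derived from the F statistic, given with the difference fitted over untreated and treated samples. Library CPM used the factor of the line's sum. Counting intervals are exact at 95%.

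Genes were named by rule: for each line, the 6 higher and 4 lower protein-coding genes farthest from the nearer other line, with at least 10 CPM in the highest line; the genes the study measured; drivers; sex-linked markers; and up to 4 called genes of the widest range in each other list. Other members were named as examples after their values were seen. Some genes and allele details are not reported here. The members and lists were chosen with earlier results of these data known. Library numbers were not treated as pairs in the test. Alternatives covered normalization, filters, library handling and leaving out each library.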

Additional observations from a re-analysis of the deposited data

How the results depend on the processing

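Counting the libraries as separate replicates gave many more differing genes than the 5480 of the summed test: 12105 for all 12 libraries, 12274 for the 6 untreated and 12270 for the 6 treated ones. The library series as a replicate block among the 6 untreated libraries gave 14168; between lines, the deviations of the higher-numbered libraries correlated across genes at 0.582 to 0.644. The spread in these fits is that between a line's libraries. DESeq2 on the sums called 6327 genes. With at least 10 counts required in every sum, which leaves out genes silent in a line, genes higher in lines 9750, 9790 and 9804 numbered 276, 423 and 254 and genes lower 311, 438 and 336. A 4-fold in place of a 2-fold difference left 340, 278 and 313 higher and 252, 267 and 283 lower. Without 1 library at a time the differing genes ranged from 5083 to 5518, and no class moved by over 1.5 times. All 30 named genes kept their direction in each of the 363 alternatives computed for them, and their call wherever the test was run again. The settings of the prior count and of sizes from treated samples reused the main test, so the call could not change there. The filter of at least 10 counts in every sum kept only 3 of the 30 genes. Their sizes moved by over 1.5 times for 19 genes with a prior count of 0.5 or of 5, for 22 when taken from the treated samples, and for Ror2 and Slc39a4 without 1 library. The 8 medians of chromosomes 3, 6, 15 and 19 stayed between 0.34 and 0.48. Depth limits statements on genes under 3 counts, and each line has 1 summed sample per condition.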

Other observations

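Runs of at least 3 neighbouring expressed genes that were at or under 3 counts in a line were few. Line 9790 lacked Casp1, Casp12 and Pdgfd on chromosome 9, where another line reached up to 33 CPM, Mkrn3, Peg12 and Otud7a on chromosome 7, and Eif1ad2, Eif1ad14 and Eif1ad15, similar copies among which reads can be split, on chromosome 12, besides the run of Cdkn2a, Cdkn2b and Dmrta1 on chromosome 4. Line 9750 lacked Dact2, Smoc2 and Thbs2 on chromosome 17, where another line reached 161 CPM, and Eya1, Trpa1 and Kcnb2 on chromosome 1, besides the 4 Hoxa genes named above. No such run was found in line 9804. Whether these genes are lost or silent was not tested.

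Genes of the Schwann and neural marker list that passed the filter also differed. S100b was at 27.8 CPM in line 9804 against 5.64 and 2.7 CPM in lines 9750 and 9790 (adjusted p = 0.00336, edgeR), and Mbp went the other way at 1.98 CPM against 42.7 and 39.6 CPM (adjusted p = 0.0014). Sox10 and Ngfr, which define these cells, had 0 counts in every untreated library. Of the acinar list, Cela1 alone was called, at 11.8, 4.85 and 0.402 CPM (adjusted p = 0.00439), while Ptf1a, Cpa1 and Cel had 0 counts.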
